A study of Mus musculus with 6 samples.

Results

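The Ly6 genes are a mouse family of small proteins of the cell surface, and 8 of them, Ly6a, Ly6c1, Ly6c2, Ly6d, Ly6e, Ly6g, Ly6i and Ly6k, were followed here in spleen. They were taken by gene name from the 47729 genes of the count table, and the choice was made with earlier results of these data known. Other Ly6 genes of the table are read below as relatives. Spleens came from 3 NOD.B10 females, a strain that develops a disease like primary Sjögren's syndrome (pSS) on a NOD background with the H2 b haplotype, and from 3 females of the control strain BL/10 (C57BL10/SnJ). RNA was read by single-end sequencing, and reads were counted on the exons of each gene. The purpose of the study's RNA-seq was to find genes that differ between diseased NOD.B10 mice and healthy controls. Total counts were 16476126, 16257041 and 17160323 in NOD.B10 replicates 1, 2 and 3, and 18298451, 15662712 and 17935130 in BL/10 replicates 1, 2 and 3.

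The labels conflict on which libraries are which. The description of each library and the column of the table name one strain, and the title and strain field name the other, for all 6 libraries. The strain of the description and column was used, and every direction given here would reverse under the titles. The study reported T cell receptor signaling among the pathways of genes enriched in NOD.B10. Under the column names 17 of 20 T cell markers were higher in NOD.B10, which is the same direction. For cultured splenocytes without stimulation, the study reported more of the chemokine RANTES (CCL5) in NOD.B10. The RNA of Ccl5 was lower in NOD.B10 here (log2 fold change -0.55), which is the opposite direction. Strain alleles were not read here. The study's methods give 26 weeks for NOD.B10, call the controls matched in age and put all animals at 26 weeks or more, whereas the labels give 26 weeks for 4 libraries and 36 weeks for BL/10 replicates 2 and 3. Age and strain are thus not fully separated, since BL/10 replicate 1 is the only BL/10 library labelled 26 weeks. The match of BL/10 replicate 3 to its column rests on its library number and strain. BL/10 replicate 1 also stood apart, because its pancreas genes were far above those of the other libraries. The 15 pancreas acinar genes summed to 13180 CPM (counts scaled to library size by the TMM method) there, 2033 and 109.8 CPM in BL/10 replicates 2 and 3, and 31.0, 29.5 and 22.0 in NOD.B10 replicates 1, 2 and 3. Of the 12 of these genes that could be tested, 12 were lower in NOD.B10, and 0 passed without NOD.B10 replicate 1 or without replicate 3, and 1 without replicate 2. With at least 10 counts in every library, 1 gene could be tested, and it was lower. Their part in the Ly6 results was not tested, but each Ly6 result is also given where leaving out a library ended or made a call.

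Most Ly6 proteins fold into a compact domain of paired cysteines and are held in the outer membrane by a glycosylphosphatidylinositol (GPI) anchor. Immunologists know them mainly as surface markers, since Ly6C and Ly6G antibodies separate monocytes from neutrophils and Ly6A, also called Sca-1, marks blood stem cells. Several members are induced by interferons, and the genes lie in a cluster that differs in copy number and allele between mouse strains.

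All 8 genes passed the filter on low counts. In edgeR's quasi-likelihood test with Benjamini-Hochberg adjustment over 15330 genes, 5 of the 8 were lower in NOD.B10 at an adjusted p under 0.05 (Ly6c2, Ly6e, Ly6d, Ly6g and Ly6c1), and 0 were higher. Over all genes tested, 17.3% passed, 8.22% as lower and 9.11% as higher. That total of 2656 genes ranged from 1269 without NOD.B10 replicate 1 to 4107 without BL/10 replicate 1 when 1 library was left out. The count of 0 higher genes was also found with DESeq2, and 1 gene, Ly6k, was higher at an unadjusted p under 0.05. The 3 NOD.B10 libraries all lay below the 3 BL/10 libraries for 5 of the 8 genes, against 17.5% of all genes, and all above them for 1, against 20.5%. The median log2 fold change of the 8 genes was -1.03, and that of all tested genes was 0.0006. Without the libraries labelled 36 weeks, which leaves BL/10 replicate 1 alone, 3 of the 8 passed, and the spread between mice there comes from NOD.B10 only. In that fit 1001 of 16161 genes passed. Of each library's counts, the 8 genes together made up 0.0826%, 0.0679% and 0.0825% in the NOD.B10 strain and 0.218%, 0.179% and 0.166% in the control strain. In bulk spleen, fewer cells of a type and less RNA per cell cannot be told apart. For a single gene with 3 libraries per strain, the smallest p that exact permutation allows is 0.1, so the model across all genes was used.

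**Figure D1:**
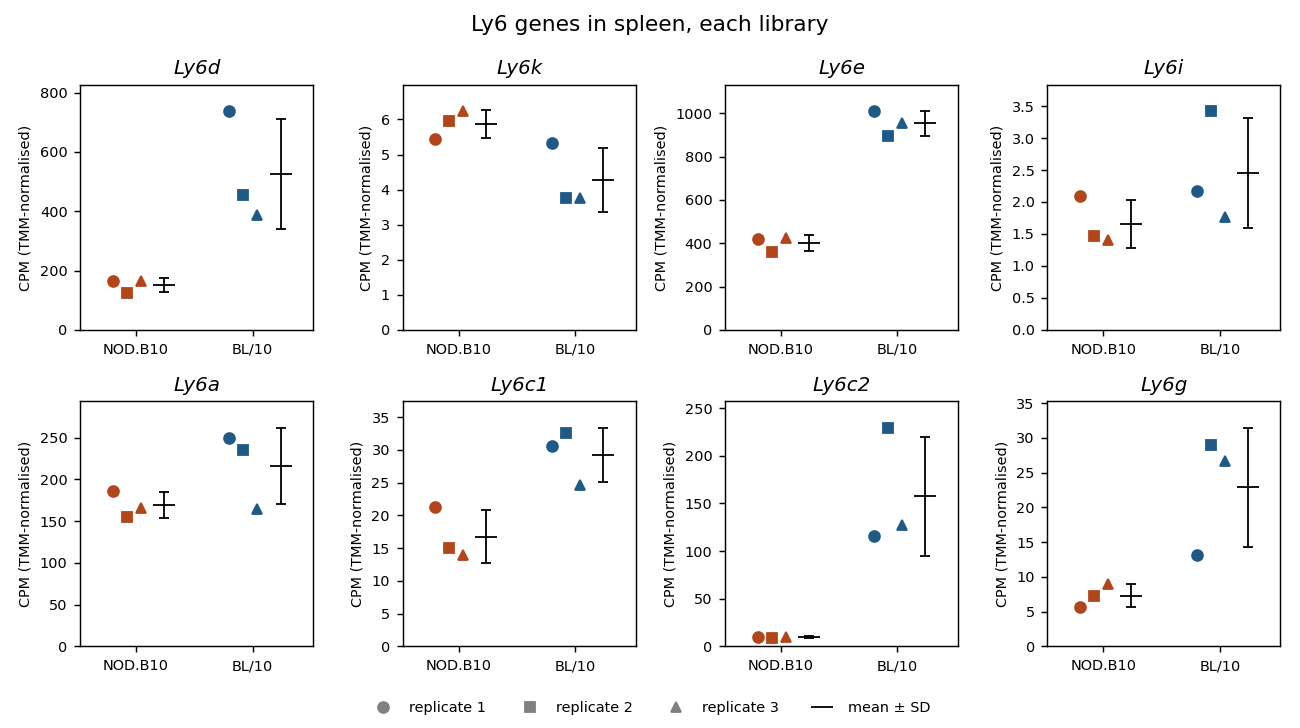
Normalised expression (CPM, each axis from 0) of the 8 Ly6 genes in the 3 NOD.B10 and 3 BL/10 spleen libraries, with the mean and SD of each strain beside the points. Ly6c2 stayed between 9.27 and 10.4 CPM in NOD.B10 and reached 229 CPM in BL/10 replicate 2, whereas Ly6a and Ly6i overlapped between strains.

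Ly6d appears when lymphoid progenitors commit to the B lineage and stays on mature B cells. Its CPM was 166, 125 and 164 in NOD.B10 replicates 1, 2 and 3 and 738, 455 and 386 in BL/10 replicates 1, 2 and 3. BL/10 replicate 1 was the highest library, and the lowest BL/10 library was still above all NOD.B10 libraries. The log2 fold change was -1.80 ± 0.25 (SE, n = 3 per strain; adjusted p = 0.00319 in edgeR's quasi-likelihood test with Benjamini-Hochberg adjustment), and the call held in all 13 alternatives. Of the 12 B cell markers, 0 passed in the same test. At an unadjusted p under 0.05, 1 was higher, and DESeq2 called 1 higher. The list summed to 5009, 4317 and 5598 CPM in NOD.B10 and 5728, 3245 and 3532 CPM in BL/10, and its most abundant gene was Ms4a1, which encodes CD20. Its median log2 fold change was 0.24. Without BL/10 replicate 1, 8 of the 12 were called, all higher in NOD.B10. Set against the B cell sum of its own library, Ly6d stood at 3.31%, 2.90% and 2.92% in NOD.B10 and at 12.9%, 14.03% and 10.9% in BL/10. The strains remained apart on this scale. The part of B cell RNA in the Ly6d result was not tested.

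The genes whose pattern over the 6 libraries was most like that of Ly6d were Ifi209, of the interferon-inducible p200 family, Fbxo44, a ubiquitin ligase subunit, and A530040E14Rik. Likeness was the root mean square difference of log2 CPM, with 0.5 CPM added to each value, centred on each gene's mean. It was 0.137, 0.166 and 0.171 among 14218 genes searched. The fitted log2 fold changes of Fbxo44 (-2.21) and A530040E14Rik (-2.37) were further from 0 than that of Ly6d, and the 0.5 CPM added narrows the contrast of genes as low as these.

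Ly6e restricts the entry of some viruses and is widely expressed. Its CPM was 418, 358 and 425 in NOD.B10, against 1008, 896 and 955 in BL/10. The libraries of each strain lay close together, and the strains were far apart. The log2 fold change was -1.25 ± 0.12 (SE; adjusted p = 0.000533 in edgeR's quasi-likelihood test with Benjamini-Hochberg adjustment), and in all 13 alternatives it stayed past the threshold, between -1.33 and -1.18. The closest patterns were those of Pctp, a phosphatidylcholine transfer protein, Ago4, an Argonaute protein, and AU021092, with root mean square differences of 0.072, 0.0933 and 0.0966.

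Ly6a carries the Sca-1 antigen of stem cells and activated lymphocytes. Its CPM was 186, 155 and 166 in NOD.B10 and 249, 235 and 164 in BL/10. BL/10 replicate 3 lay among the NOD.B10 libraries, whereas the other 2 BL/10 libraries were above them. The log2 fold change of -0.36 ± 0.17 (SE) did not pass the threshold (adjusted p = 0.171, edgeR's quasi-likelihood test with Benjamini-Hochberg adjustment). Without BL/10 replicate 3 it was -0.53 and passed (adjusted p = 0.0322 in the same edgeR test; range over the 13 alternatives 0.0322 to 0.360). The stem and progenitor markers, 8 genes with Kit as the most abundant, summed to 119, 109 and 113 CPM in NOD.B10 and 134, 129 and 151 CPM in BL/10. Of them, Gata2, a progenitor transcription factor, was lower (log2 fold change -0.79 ± 0.15 SE) and Procr, a surface receptor for protein C, was higher (0.44 ± 0.12 SE), and the median of the list was -0.26. No gene of the list was higher without NOD.B10 replicate 1, NOD.B10 replicate 3, BL/10 replicate 2 or BL/10 replicate 3, with either other filter on low counts, or with the replicate block, and 0 were called without the libraries labelled 36 weeks.

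Because Ly6e and Ly6a are known to respond to interferon, 30 interferon-stimulated genes were read beside them. Their median log2 fold change was -0.71, with 14 lower in NOD.B10 and 1, the GTPase gene Gbp2, higher. The lower genes with the smallest p were Oas1a, Oasl1 and Oas2, of the antiviral oligoadenylate synthetase family, and Cmpk2, a nucleotide kinase. Oas1a was at 5.92, 5.04 and 5.28 CPM in NOD.B10 and 13.9, 21.6 and 17.7 CPM in BL/10 (log2 fold change -1.71 ± 0.18 SE), and the fold changes of Oasl1, Oas2 and Cmpk2 were -1.60, -1.59 and -1.54. The sum of the list was 1832, 1515 and 1604 CPM in NOD.B10 and 1832, 2877 and 2455 CPM in BL/10. BL/10 replicate 1 thus matched NOD.B10 replicate 1. It is also the only BL/10 library labelled 26 weeks, as all NOD.B10 libraries are, so age and strain cannot be told apart here. This sum was led by Rsad2, an antiviral enzyme, at 259, 291 and 160 CPM in NOD.B10 and 225, 685 and 644 CPM in BL/10, which did not pass the threshold. Ly6e was high in all 3 BL/10 libraries, unlike this sum, and 16 of the 30 genes, Oas1a among them, also had all NOD.B10 libraries below all BL/10 libraries. As a share of the list's sum, Ly6e stood at 22.8%, 23.6% and 26.5% in NOD.B10 and 55.0%, 31.1% and 38.9% in BL/10. Ly6a stood at 10.1%, 10.3% and 10.35% against 13.6%, 8.17% and 6.70%, where the strains overlapped. The number of list genes called dropped from 15 to 8 without NOD.B10 replicate 3 and to 5 without the libraries labelled 36 weeks, and the part of the list in the Ly6 results was not tested.

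Ly6c1 and Ly6c2 together encode the Ly6C antigen, which marks inflammatory monocytes, memory T cells and some plasma cells and endothelium. Ly6c2 was at 10.2, 9.27 and 10.4 CPM in NOD.B10 and 115.5, 229 and 128 CPM in BL/10. The counts were 170, 151 and 185 against 2126, 3421 and 2246. Part of the gene may be missing from them, and how reads of NOD alleles map was not tested, as described below. BL/10 replicate 2 was the highest library, and the NOD.B10 libraries lay within a narrow band far below all BL/10 libraries. Ly6c2 had the lowest fold change of the 8 genes, with a log2 fold change of -3.98 ± 0.28 (SE; adjusted p = 0.000145 in edgeR's quasi-likelihood test with Benjamini-Hochberg adjustment), and its mean CPM was 15.8-fold higher in BL/10. It passed the threshold in all 13 alternatives, with log2 fold changes between -4.17 and -3.54. Its closest patterns were those of Rag1, the recombinase gene of developing lymphocytes, I830127L07Rik, a neighbour in the Ly6 cluster, and Ear2, a ribonuclease of eosinophils and some monocytes, with root mean square differences of 0.181, 0.195 and 0.202. Rag1 averaged 0.332 CPM in NOD.B10 and 12.3 CPM in BL/10, and Ear2 averaged 6.47 and 93.0 CPM. The fitted log2 fold change of Rag1 was -5.16, further from 0 than that of Ly6c2, and the 0.5 CPM added in the search narrows the contrast of a gene this low. Its place without that value was not computed.

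Ly6c1 was at 21.4, 14.99 and 13.99 CPM in NOD.B10 and 30.5, 32.6 and 24.6 CPM in BL/10. NOD.B10 replicate 1 was nearest to the BL/10 libraries, and the strains did not overlap. The log2 fold change was -0.80 ± 0.18 (SE; adjusted p = 0.0236 in edgeR's quasi-likelihood test with Benjamini-Hochberg adjustment). The call was lost, in edgeR again, without NOD.B10 replicate 2 (adjusted p = 0.0702), NOD.B10 replicate 3 (0.0772), BL/10 replicate 2 (0.0719) or the libraries labelled 36 weeks (0.0911), within a range of 0.00131 to 0.0911 over the 13 alternatives. The log2 fold changes in these 4 fits were -0.73, -0.68, -0.72 and -0.86. The genes most like Ly6c1 were Cd160 and Klra7, receptors of natural killer cells, and Cd300e, a myeloid receptor, with root mean square differences of 0.105, 0.128 and 0.106.

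Markers of cells known for Ly6C were read next. Of 11 monocyte markers, 1 was lower in NOD.B10, Itgam, which encodes the integrin chain CD11b (log2 fold change -0.95 ± 0.21 SE), and 0 were higher. At an unadjusted p under 0.05 in edgeR's test, 2 were higher and 5 lower, and DESeq2 called 0 higher and 3 lower. The list summed to 1087, 951 and 1026 CPM in NOD.B10 and 1037, 1181 and 1229 CPM in BL/10, with Csf1r, the receptor for colony-stimulating factor 1, as its most abundant gene and a median of -0.08. Without BL/10 replicate 1, 3 were lower, without NOD.B10 replicate 3, 2 were higher, and 0 were called without any 1 of the other 4 libraries or without the libraries labelled 36 weeks. With the replicate block 2 were lower. As a share of the monocyte sum, Ly6c2 stood at 0.935%, 0.975% and 1.01% in NOD.B10 and 11.1%, 19.4% and 10.4% in BL/10. On the same scale, Ly6c1 stood at 1.96%, 1.58% and 1.36% against 2.95%, 2.76% and 2.00%.

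Most T cell markers and 6 of 10 plasma cell markers were higher. Of 20 T cell markers, 17 were higher in NOD.B10, among them Cd3e, a chain of the T cell receptor complex (log2 fold change 1.42 ± 0.12 SE), the transcription factor genes Bcl11b (1.77 ± 0.17 SE) and Tcf7 (1.66 ± 0.18 SE), and the co-receptor gene Cd6 (1.74 ± 0.18 SE). The list summed to 1615, 1497 and 2081 CPM in NOD.B10 and 943, 804 and 732 CPM in BL/10, and its median was 1.24, with Cd4 as its most abundant gene. Cd8b1, a chain of the CD8 co-receptor, was not called (log2 fold change -0.40), and without NOD.B10 replicate 3, 16 of the list were higher and 1 lower. Of 8 memory T cell genes, 1 was lower, the chemokine gene Ccl5, and the list, led by Cd44, summed to 433, 364 and 418 CPM against 454, 465 and 451 CPM. Its median was 0.19, its call was lost without NOD.B10 replicate 3, BL/10 replicate 2 or the libraries labelled 36 weeks, and 2 genes were called without BL/10 replicate 1 or with the replicate block. Of the plasma cell markers, led by the immunoglobulin joining chain gene Jchain, Xbp1, Prdm1, Sdc1 and Mzb1 were among those called, Tnfrsf17 (log2 fold change -0.26) was not, and the sum was 3679, 4215 and 4040 CPM in NOD.B10 and 2993, 2671 and 2368 CPM in BL/10 (median log2 fold change 0.60). Without NOD.B10 replicate 3 or BL/10 replicate 3, 3 plasma cell markers were called, and without the libraries labelled 36 weeks, 0. Beside the plasma cell sum, Ly6c2 stood at 0.276%, 0.220% and 0.257% in NOD.B10, against 3.86%, 8.59% and 5.39% in BL/10. The part of these lists in the Ly6C result was not tested.

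Ly6g is the granulocyte antigen of the Ly6 family and marks mature neutrophils. Its CPM was 5.62, 7.31 and 8.99 in NOD.B10 and 13.1, 29.0 and 26.7 in BL/10, from counts of 94, 119 and 160 and of 242, 432 and 469. BL/10 replicate 1 was low for its strain, yet above all NOD.B10 libraries. The log2 fold change was -1.64 ± 0.31 (SE; adjusted p = 0.0115 in edgeR's quasi-likelihood test with Benjamini-Hochberg adjustment). The call was lost, again in edgeR, without NOD.B10 replicate 1 (-1.49, adjusted p = 0.0517) and without the libraries labelled 36 weeks (-0.85, adjusted p = 0.124), within a range of 2.56e-06 to 0.124 over the 13 alternatives. The closest patterns were those of Cd177, a neutrophil surface protein, Ltb4r1, a leukotriene receptor, and Chil3, a secreted lectin of myeloid cells, with root mean square differences of 0.099, 0.108 and 0.132.

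Most neutrophil markers were lower, as Ly6g was. Of 16 markers, 14 were lower in NOD.B10 and 0 higher, and DESeq2 also called 0 higher, while 1 was higher at an unadjusted p under 0.05 in edgeR's test. The 2 that were not called were Cxcr2 (log2 fold change 0.58) and Csf3r (-0.01), both surface receptors, and without NOD.B10 replicate 3, 1 was higher and 11 lower. The median log2 fold change was -1.83. The list summed to 2505, 2757 and 2400 CPM in NOD.B10 and 6572, 13720 and 12080 CPM in BL/10, and none of its genes was at 0. BL/10 replicate 1 was the lowest library of its strain for the list as it was for Ly6g. It is also the only BL/10 library labelled 26 weeks, as all NOD.B10 libraries are, so age and strain cannot be told apart here. The most abundant gene, S100a9, and its partner S100a8 encode the calprotectin of neutrophil cytoplasm, and S100a8 was at 526, 607 and 457 CPM in NOD.B10 and 1630, 3352 and 2770 CPM in BL/10 (log2 fold change -2.29 ± 0.27 SE). Camp, a granule peptide, and Padi4, an enzyme of extracellular traps, fell by 2.40 and 2.48 on the log2 scale. As a share of the neutrophil sum, Ly6g stood at 0.224%, 0.265% and 0.375% in NOD.B10 and 0.200%, 0.211% and 0.221% in BL/10, so on this scale all NOD.B10 libraries were above all BL/10 libraries. On the same scale Ly6c2 stood at 0.406%, 0.336% and 0.433% in NOD.B10 and 1.76%, 1.67% and 1.06% in BL/10, so it remained lower. The part of neutrophil RNA in the Ly6g result was not tested.

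The other 2 genes had the lowest mean levels per kb in BL/10. Both were above the floor of 3 counts, which corresponds to 0.163 to 0.201 CPM and covers counting error only. Ly6i is a close relative of Ly6a by sequence. It was counted 35, 24 and 25 times in NOD.B10 and 40, 51 and 31 times in BL/10, or 2.09, 1.47 and 1.41 CPM against 2.17, 3.42 and 1.76 CPM. The strains overlapped, since NOD.B10 replicate 1 was above BL/10 replicate 3, and the log2 fold change of -0.55 ± 0.31 (SE) did not pass the threshold in edgeR's quasi-likelihood test (adjusted p = 0.243, Benjamini-Hochberg) or in any of the 13 alternatives. Ly6k acts in sperm, where it is needed for passage through the oviduct. It was at 5.44, 5.96 and 6.24 CPM in NOD.B10 and 5.32, 3.76 and 3.75 CPM in BL/10. All NOD.B10 libraries were above all BL/10 libraries, although BL/10 replicate 1 lay close to NOD.B10 replicate 1. The log2 fold change of 0.45 ± 0.19 (SE) did not pass (adjusted p = 0.132, edgeR's quasi-likelihood test with Benjamini-Hochberg adjustment). It passed without BL/10 replicate 1 (0.64, adjusted p = 0.0313 in the same edgeR test; range over the 13 alternatives 0.0313 to 0.759).

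Levels of different genes were compared per kb of exon. In BL/10 the order of mean levels was Ly6d (707 CPM per kb), Ly6e (252), Ly6a (179.5), Ly6c2 (57.5), Ly6g (24.3), Ly6c1 (17.4), Ly6k (5.16) and Ly6i (2.12). In NOD.B10 it was Ly6d (204 CPM per kb), Ly6a (140.3), Ly6e (106), Ly6c1 (10.0), Ly6g (7.76), Ly6k (7.09), Ly6c2 (3.63) and Ly6i (1.43). Ly6c2 therefore stood in place 4 in BL/10 and in place 7 in NOD.B10, and Ly6e was above Ly6a in BL/10 and below it in NOD.B10. Some neighbours had libraries that overlapped in level, and so are not separated by their spread. These were Ly6g and Ly6c1 in BL/10, and in NOD.B10 Ly6c1 with Ly6g and Ly6g with Ly6k. The libraries of Ly6c1 and Ly6k did not overlap in NOD.B10 on this scale. The scale divides by full exon length, although reads on 395 of the 829 exon bases of Ly6k were not counted, as described below. The level of Ly6k per kb is thus too low, and those of other genes with shared sequence may be. Levels over the countable bases only were not computed, so places and separations that involve Ly6k, Ly6c1 or Ly6a are uncertain.

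**Figure D2:**
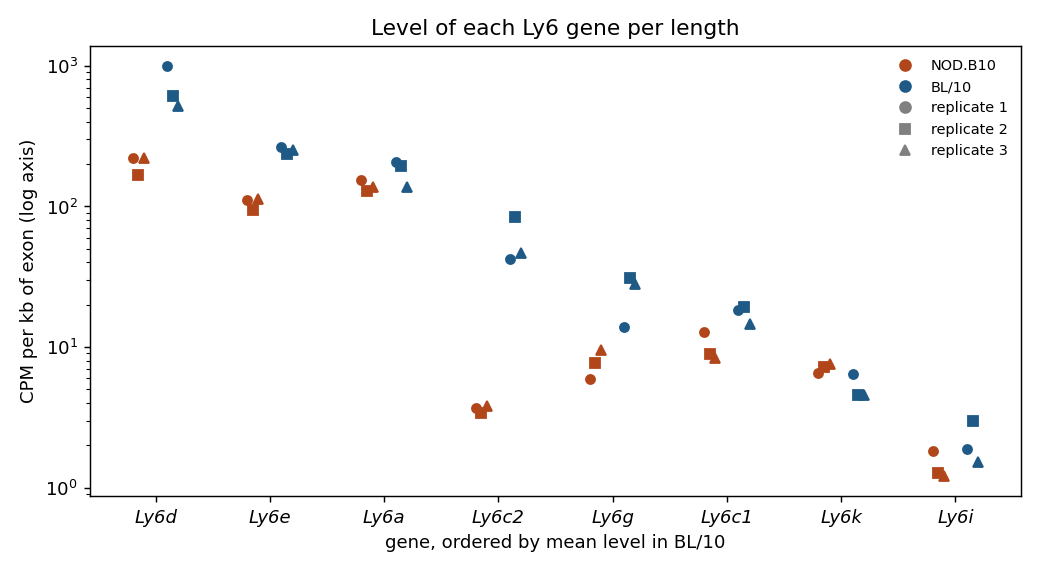
Level of each Ly6 gene in CPM per kb of exon on a log axis, for 3 NOD.B10 and 3 BL/10 libraries, with genes ordered by their mean in BL/10. Ly6d was the highest gene in both strains (707 and 204 CPM per kb), and Ly6c2 was 57.5 CPM per kb in BL/10 and 3.63 in NOD.B10.

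The members are alike in sequence, and reads that map to more than 1 place were not counted, so part of each gene may be missing from its count. In the mouse reference transcripts, the share of 50-base windows, the length of a read, that also occur in a transcript of another gene was 0% for Ly6d and Ly6e, 0.448% for Ly6g, 4.76% for Ly6i, 14.5% for Ly6c2, 19.0% for Ly6a, 32.7% for Ly6k and 32.8% for Ly6c1. Ly6c1 shared 379 windows with Ly6c2 and 195 with Ly6a, and the counts of these 3 genes are uncertain to that extent. Over their coding sequences Ly6c1 and Ly6c2 were 81.4% identical, Ly6a and Ly6i 86.4%, and Ly6a and Ly6g 83.2%, whereas Ly6d and Ly6e were 53.2% identical. The windows of Ly6k were shared with Gm17189, an antisense gene whose exons cover 395 of the 829 exon bases of Ly6k. Strand was not used in counting and reads over 2 genes were dropped. Reads there were thus counted for neither gene, and part of Ly6k is missing from its count. The reference is of another strain, C57BL/6J, and how reads of NOD alleles map to it was not tested.

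All 8 genes lie on chromosome 15 within 397071 bases (build GRCm38). First come Ly6d (ENSMUSG00000034634) at chr15:74762056-74763620, Ly6k (ENSMUSG00000044678) at chr15:74796874-74799986, Ly6e (ENSMUSG00000022587) at chr15:74955051-74959905 and Ly6i (ENSMUSG00000022586) at chr15:74979534-74983430. Then follow Ly6a (ENSMUSG00000075602) at chr15:74994877-74998031, Ly6c1 (ENSMUSG00000079018) at chr15:75044018-75048830, Ly6c2 (ENSMUSG00000022584) at chr15:75108158-75111970 and Ly6g (ENSMUSG00000022582) at chr15:75155240-75159126. Ly6e and Ly6g are on the plus strand and the others on the minus strand. From 500 kb before the first to 500 kb after the last, the table held 47 other genes, of which 14 could be tested and 14 had 0 counts in all libraries. Of the 14 tested, 5 were lower and 1 was higher in NOD.B10, against 8.22% lower and 9.11% higher of all genes tested. The median log2 fold change was -0.22. With at least 10 counts in every library, a filter that neither strain can pass alone, 3 of 10 were lower and 0 higher. The higher gene had 0 counts in BL/10 and could not be tested there.

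Them6, a gene of the thioesterase family, was at 13.8, 14.1 and 14.2 CPM in NOD.B10 and 29.5, 29.98 and 32.1 CPM in BL/10 (log2 fold change -1.12 ± 0.09 SE). Lynx1, a Ly6-like modulator of nicotinic receptors, was at 17.1, 10.4 and 18.1 CPM in NOD.B10 and 74.5, 60.8 and 63.2 CPM in BL/10 (-2.12 ± 0.20 SE). In neither gene did the strains overlap. The Ly6-like 2010109I03Rik was counted 4, 6 and 6 times in NOD.B10 and 21, 18 and 14 times in BL/10 (-1.71 ± 0.32 SE). I830127L07Rik, which RefSeq names Ly6a2 and the annotation used for symbols lists as a transcribed pseudogene, was counted 45, 37 and 40 times in NOD.B10 and 427, 812 and 658 times in BL/10. Its log2 fold change was -3.99 ± 0.33 (SE; adjusted p = 0.00031 in edgeR's quasi-likelihood test with Benjamini-Hochberg adjustment), close to the -3.98 of Ly6c2, which lies next to it in the cluster, and as for Ly6c2 BL/10 replicate 2 was the highest library. The transcribed pseudogene 9030619P08Rik was counted 0, 2 and 0 times in NOD.B10 and 35, 42 and 41 times in BL/10, a ratio of summed counts, scaled by library size, of 58.9 with an exact 95% counting interval of 15.9 to 492. The gene that was higher, the pseudogene Gm10238, was counted 24, 15 and 20 times in NOD.B10 and 0 times in each BL/10 library, which makes it at least 6.51-fold higher against a floor of 3 counts per library. Genes in the same stretch that did not pass included Jrk (log2 fold change 0.57), Gml (-0.04) and Gpihbp1 (-0.21), so lower genes, a higher gene and genes that were not called lay side by side.

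**Figure D3:**
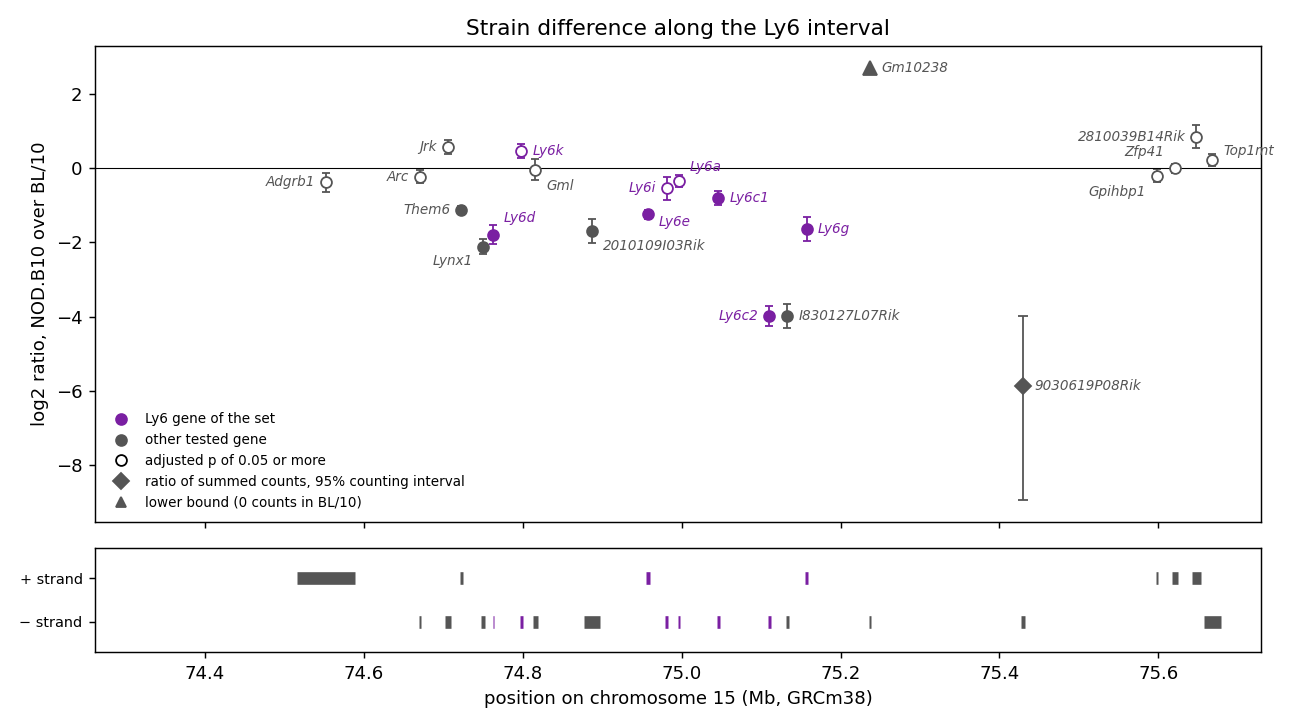
Log2 ratio of NOD.B10 over BL/10 along chromosome 15 for the 8 Ly6 genes and the 14 other tested genes. The position and strand of each gene are drawn below it. Bars are SE, except that 9030619P08Rik (diamond) is a ratio of summed counts with a 95% counting interval. Gm10238 (triangle) is a lower bound without a bar. Ly6c2 (-3.98) and I830127L07Rik (-3.99) are neighbours with nearly equal ratios, and open points mark genes with an adjusted p of 0.05 or more.

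Ly6c2 and I830127L07Rik moved together, and their promoters are shown for this reason, beside those of Ly6c1 and Ly6g, which differed less between the strains. RefSeq promoter windows (build GRCm38.p6) matched 4 of the 9 genes looked up, these 4, and no entry was used for Ly6a, Ly6d, Ly6e, Ly6i or Ly6k. Each window is the sequence before the most upstream annotated start, 5′ to 3′ on the strand of the gene, at chr15:75111972-75112221 (Ly6c2, minus strand), chr15:75135129-75135378 (I830127L07Rik, minus strand), chr15:75048838-75049087 (Ly6c1, minus strand) and chr15:75155011-75155239 (Ly6g, plus strand). In I830127L07Rik, capitals mark the 4 bases that differ from the aligned Ly6c2 window, and in Ly6c1 and Ly6g they mark a match to TATAAA.
Ly6c2: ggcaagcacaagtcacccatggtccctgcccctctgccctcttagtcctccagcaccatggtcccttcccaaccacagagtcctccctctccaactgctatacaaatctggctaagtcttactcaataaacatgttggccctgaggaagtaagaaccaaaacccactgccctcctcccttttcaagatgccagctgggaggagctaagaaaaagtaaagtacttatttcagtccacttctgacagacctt
I830127L07Rik: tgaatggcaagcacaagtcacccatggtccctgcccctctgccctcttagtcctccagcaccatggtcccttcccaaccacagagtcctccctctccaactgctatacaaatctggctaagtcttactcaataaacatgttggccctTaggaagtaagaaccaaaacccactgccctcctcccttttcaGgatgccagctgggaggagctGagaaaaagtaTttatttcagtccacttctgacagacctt
Ly6c1: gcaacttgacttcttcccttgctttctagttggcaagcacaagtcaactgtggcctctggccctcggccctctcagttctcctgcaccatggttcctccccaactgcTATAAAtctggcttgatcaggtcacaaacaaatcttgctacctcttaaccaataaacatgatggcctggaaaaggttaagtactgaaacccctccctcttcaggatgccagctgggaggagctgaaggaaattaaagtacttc
Ly6g: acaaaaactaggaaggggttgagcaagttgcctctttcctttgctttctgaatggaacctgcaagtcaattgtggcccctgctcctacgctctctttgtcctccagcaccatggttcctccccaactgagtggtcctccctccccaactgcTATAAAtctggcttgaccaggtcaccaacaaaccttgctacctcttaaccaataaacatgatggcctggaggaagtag
The windows of Ly6c2 and I830127L07Rik were identical at 241 of 250 aligned positions (96.4%), where the other 5 differences are bases of Ly6c2 that I830127L07Rik lacks. Ly6c2 was 71.9% identical to Ly6c1 and 67.0% to Ly6g over the aligned parts. The letters TATAAA, searched on both strands, occurred 1 time each in the windows of Ly6c1 and Ly6g and were not in those of Ly6c2 and I830127L07Rik, and they were in 3507 of 27025 promoter windows of 250 bases, 1 per gene. The STAT site pattern TTCNNNGAA and an interferon-response pattern, 2 copies of GAAA with 2 bases between them, were in none of the 4 windows and in 7.14% and 3.05% of all windows. These are matches of letters in the reference of another strain, and binding was not measured.

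Outside the 8 genes, a list of 45 Ly6 and urokinase receptor (uPAR) relatives was read, of which 40 were in the table and 14 could be tested. Of these, 7 were lower in NOD.B10 and 0 were higher in edgeR's test, against 8.22% lower and 9.11% higher of all genes tested. DESeq2 called 6 lower and 0 higher. At an unadjusted p under 0.05 in edgeR's test, 7 were lower and 0 higher. Of the 7, 2010109I03Rik, 9030619P08Rik and Ly6g5b had fewer than 10 counts in at least 1 NOD.B10 library. With at least 10 counts in every library, a filter that neither strain can pass alone, 4 of 9 relatives were lower and 0 higher. The median log2 fold change was -0.65. On chromosome 15, 4 of 6 relatives tested were lower, namely Lynx1, 2010109I03Rik, I830127L07Rik and 9030619P08Rik given above. The other 3 lie elsewhere. Cd59a and Cd59b, neighbouring genes on chromosome 2 whose products shield cells from complement, had log2 fold changes of -1.04 ± 0.25 and -1.04 ± 0.29 (SE). Cd59a was at 17.9, 25.6 and 13.4 CPM in NOD.B10 and 29.7, 42.5 and 44.7 CPM in BL/10. Ly6g5b, in the H2 region of chromosome 17, was counted 10, 6 and 11 times in NOD.B10 and 18, 20 and 18 times in BL/10 (-1.05 ± 0.30 SE; adjusted p = 0.0487 in edgeR's quasi-likelihood test with Benjamini-Hochberg adjustment), and the other 2 relatives tested on that chromosome were not called. Plaur, which encodes the urokinase receptor and is the most abundant relative, was at 49.6, 40.7 and 44.3 CPM in NOD.B10 and 41.8, 36.3 and 36.0 CPM in BL/10 and did not pass. Without NOD.B10 replicate 1, 3 relatives were called, and without NOD.B10 replicate 3, BL/10 replicate 2 or BL/10 replicate 3, 4 were, and without the libraries labelled 36 weeks, 3 were.

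The enzymes that build and attach the GPI anchor were read as well, and 13.8% of them were called, against 17.3% of all genes. Of 29 genes, 3 were lower in NOD.B10 and 1 was higher, at a median log2 fold change of -0.05, and the list, led by Pigq, summed to 941, 1014 and 949 CPM in NOD.B10 and 986, 1197 and 1110 CPM in BL/10. At an unadjusted p under 0.05 in edgeR's test, 5 were higher and 4 lower. All NOD.B10 libraries lay above all BL/10 libraries for 7 genes and below them for 4. Pigq was at 203, 291 and 192 CPM in NOD.B10 and 215, 442 and 395 CPM in BL/10 and did not pass. The lower genes were Pgap2, which remodels the lipid of the anchor (log2 fold change -1.08 ± 0.10 SE), Pign (-0.37 ± 0.09 SE) and Mppe1 (-0.37 ± 0.10 SE), and Pigo was higher (0.33 ± 0.08 SE). No gene of the list was higher with the replicate block or without a filter beyond 1 count, where 2 were lower. Leaving out a single library gave 1 call, a lower gene, without NOD.B10 replicate 1, 2 or 3 or BL/10 replicate 2, 2 calls without BL/10 replicate 3 and 6 without BL/10 replicate 1.

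Other cells of the spleen that can carry Ly6 proteins were read in the same way. Of 8 plasmacytoid dendritic cell markers, a cell type with surface Ly6C, 0 passed in edgeR's test, 2 were higher and 2 lower at an unadjusted p under 0.05, and DESeq2 called 1 lower. They summed to 234, 209 and 270 CPM in NOD.B10 and 324, 241 and 209 CPM in BL/10 (median log2 fold change -0.07), and Tcf4 was the most abundant. The sum includes Klk1, at 14.17, 14.19 and 17.03 CPM in NOD.B10 and 104.1, 20.59 and 4.148 CPM in BL/10. Klk1 thus made up a large part of the sum of BL/10 replicate 1. Across the BL/10 libraries it fell in the same order as the pancreas acinar sum, and a link between them was not tested. Of 9 conventional dendritic cell markers, led by Irf8, 0 passed in edgeR's test or DESeq2, and 1 was higher and 1 lower at an unadjusted p under 0.05. They summed to 590.1, 506 and 608 CPM against 541, 522 and 533 CPM, with a median of 0.16. Of 12 endothelial markers, Pecam1, the most abundant (log2 fold change 0.59 ± 0.14 SE), and Tek (0.57 ± 0.16 SE) were higher. Emcn was lower, at 0.897, 1.54 and 1.69 CPM against 2.50, 2.75 and 3.01 CPM. The list summed to 1075, 921 and 1076 CPM against 884, 830.1 and 1055 CPM, with a median of 0.04. Of 8 natural killer cell markers, led by Gzma, Ncr1 was higher (0.93 ± 0.19 SE) and Klrb1c lower (-0.81 ± 0.17 SE). Their sum was 193, 130.3 and 174 CPM against 172, 213 and 152 CPM, with a median of -0.26.

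Of 10 macrophage markers, led by Hmox1, Cd5l (log2 fold change -1.63 ± 0.16 SE) and Slc40a1 (-0.62 ± 0.11 SE) were lower and Vcam1 (0.39 ± 0.11 SE) was higher. The macrophage sum was 5180, 4523 and 3946 CPM in NOD.B10 and 4409, 4534 and 5125 CPM in BL/10, with a median of 0.07. No macrophage marker was higher with RLE scaling, either other filter, the replicate block or without any 1 library except NOD.B10 replicate 3, and DESeq2 called 3 higher and 3 lower. Without NOD.B10 replicate 3, 1 of the 3 calls was kept, and without the libraries labelled 36 weeks, 1, a lower gene. Of 11 erythroid genes tested, led by Hbb-bs, the alpha globin gene Hba-a2 was called, at 7.42, 9.09 and 5.34 CPM in NOD.B10 and 1867, 3966 and 4810 CPM in BL/10. This gene has a near-identical copy, Hba-a1, and its count is uncertain. The erythroid sum was 41620, 48720 and 27200 CPM against 29850, 59240 and 67880 CPM, with a median of -0.49. Of 6 megakaryocyte markers, led by Ppbp, Gp9 was lower (-0.65 ± 0.18 SE), a call lost with the replicate block, upper-quartile scaling or at least 10 counts in every library. The sum was 677, 806 and 542 CPM against 1271, 693 and 990.1 CPM, with a median of -0.58. These short lists turned on single libraries. For plasmacytoid dendritic cells, 1 marker was lower without NOD.B10 replicate 3 and 1 was higher without BL/10 replicate 1. For conventional dendritic cells, 1 was higher without BL/10 replicate 2 and with upper-quartile scaling. No endothelial gene was called without NOD.B10 replicate 1, NOD.B10 replicate 3 or BL/10 replicate 2, and 1, a higher gene, was called without NOD.B10 replicate 2, BL/10 replicate 3 or the libraries labelled 36 weeks. There was no natural killer cell gene called without NOD.B10 replicate 3 or without the libraries labelled 36 weeks. The call of Ncr1 was also lost without NOD.B10 replicate 1, and that of Klrb1c without BL/10 replicate 2. Without BL/10 replicate 1, 4 erythroid and 3 stem and progenitor genes were called, and without BL/10 replicate 2, 3 megakaryocyte genes, against 0 without any other single library. The erythroid count was 2 without NOD.B10 replicate 2, with DESeq2, without a filter beyond 1 count or with the replicate block. None of the markers of any cell list was at 0 in all libraries, and the part of these lists in the Ly6 results was not tested.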

How the data were processed

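The authors sequenced spleen RNA (TruSeq, single-end reads of 50 bases) and deposited raw counts per gene, which per the file headers were made with featureCounts version 1.5.1 on exons of Ensembl annotation 84 (GRCm38), without strand and without reads that map to several places or genes. The study's methods name Tophat2 as the aligner and the submitters' processing notes name HISAT2 version 2.0.5. Symbols came from GENCODE M21 (47224 of 47729 matched). Here edgeR version 4.0.16 (filterByExpr, TMM, quasi-likelihood test, BL/10 as reference, threshold 0.05) was run in R version 4.3.3 and tested on simulated data. SEs were computed from the fold change and F statistic. DESeq2 version 1.42.0, RLE and upper-quartile scaling, other filters, a replicate block and left-out libraries were alternatives. Exon lengths in the count table gave CPM per kb. Sequences were aligned with Biopython version 1.88. Members and gene lists, which came from general knowledge, were chosen with earlier results of these data known. Named were all members, called relatives and interval genes, and of each list its most abundant gene and some of those with the smallest p. Some genes that were not called were named as well.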

Additional observations from a re-analysis of the deposited data

How the results depend on the processing

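All 8 Ly6 genes kept the direction of their log2 fold change in the 13 alternatives, and Ly6c2, Ly6e and Ly6d stayed past the threshold in all of them. The number of Ly6 genes called was 5 with RLE or upper-quartile scaling, DESeq2, other filters on low counts and the replicate block, 4 to 6 without 1 library, and 3 without the libraries labelled 36 weeks, where BL/10 replicate 1 stands alone and the spread comes from NOD.B10 only. Of all genes, 2656 were called, 1269 to 4107 without 1 library and 1001 without the libraries labelled 36 weeks, where fewer samples remain. Of the relatives, 7 were called, 3 to 7 without 1 library, 3 without the libraries labelled 36 weeks and 4 with at least 10 counts in every library, where fewer genes are tested. Of the other genes around the cluster, 6 were called, 5 to 6 without 1 library and 3 with at least 10 counts in every library. With the replicate block, 2889 genes, 5 Ly6 genes, 6 relatives and 6 genes around the cluster were called. For libraries that share a replicate number, deviations across genes had r of 0.032, 0.172 and -0.084. Over all pairs of the strains r ran from -0.184 to 0.172, and not every library was closest to its own number. These values gave no ground to pair the mice by number, but a shared day or batch was not tested. No scaling moved the median log2 fold change of all genes beyond -0.01 to 0.03. Strain alleles were not read, and the ages in the labels were not tested.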
